A study of Mus musculus with 8 samples.

Results

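The comparison set the colon epithelium of mice with a mutated glycosyltransferase gene, taken as 1 group of 6 libraries, against 2 wild-type libraries. All mice were C57BL/6J, and each genotype gave 1 male and 1 female library of untreated primary epithelial cells. The mutant genotypes were labelled St6galnac6-/-, B3galt5D116A (the D116A substitution in B3galt5) and B3gnt7-/-. The labels give no age and do not say which part of St6galnac6 or B3gnt7 is deleted, or whether animals were pooled, so a p-value here speaks only of how these libraries vary. Each library gave an FPKM value (fragments counted per transcript length and library size) for 24346 gene symbols, and 11537 genes averaged 1 FPKM or more across all 8. Of these, 1794 (15.5%) had both wild-type libraries on the same side of all 6 mutant libraries in log2(FPKM + 1). In 960 genes (8.32%) wild-type lay above every mutant library, and in 834 (7.23%) below. These are called genes apart, and the gap is the log2 distance between the nearest wild-type and mutant libraries.

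The targeted enzymes work on the glycans of glycoproteins such as mucins, which coat the colon. B3gnt7 adds N-acetylglucosamine and so extends chains, B3galt5 adds galactose, and St6galnac6 adds sialic acid. The colon epithelium holds absorptive colonocytes, mucus-secreting goblet cells, hormone-secreting enteroendocrine cells, tuft cells and dividing cells of the crypt base. Immediate early genes, several of which are described here, encode mostly transcription factors whose transcripts rise within minutes of a stimulus, without new protein synthesis.

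As a group, the mutants were not marked by a lower level of any targeted gene. St6galnac6 had 218 and 232 FPKM in its own mutant, 363 to 495 in the other mutants, and 368 and 343 in wild-type. B3gnt7 had 68.8 and 142 FPKM in its own mutant, 154 to 266 in the others, and 215 and 189.8 in wild-type. B3galt5, whose allele is a substitution that leaves the transcript to be counted, had 117 and 105 FPKM in wild-type against 93.1 to 162 FPKM in the mutants. The pooled log2 differences, mutants minus wild-type, were -0.06 for St6galnac6, -0.26 for B3gnt7 and 0.13 for B3galt5, with limma adjusted p of 0.911, 0.776 and 0.845. All 3 genes overlapped between the groups. For St6galnac6 the sign turned to 0.04 after quantile normalization.

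The libraries were alike as a whole. Pearson correlations of log2 values were 0.974 to 0.986 within a genotype, 0.975 to 0.983 between wild-type and mutant libraries, and 0.971 to 0.988 between mutant genotypes. Relative depth, estimated from ratios of values below 0.15 FPKM, was 1 and 1.05 in wild-type and 1.18 to 1.45 in the mutants, so wild-type was the shallower group. Defining epithelial markers were present throughout, with Epcam at 953 and 876 FPKM in wild-type and 864 to 949 FPKM in the mutants. Of the 10 tested, 7 had log2 differences below 0 and 3 above, with 0 called. Krt18, 1 of the 10 (10%, against 8.32% of all genes), was apart and lower. It had 667 and 526 FPKM in wild-type and 387 to 520 FPKM in the mutants. The B3gnt7-/- female library stood apart. It had the lowest Hspb1, a small heat shock protein (3.002 FPKM, against 43.0 to 57.3 in the other mutants), and the highest Dcn, the matrix protein decorin (18.9 FPKM against 2.45 to 3.03). Without it, 1427 genes (12.4%) lay lower in all 5 other mutant libraries and 1496 (13%) higher, and limma, described below, called 0.33% of genes lower and 0.209% higher. For most lists, counts of members without it are given beside those with all libraries, to be read against these shares.

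Most gaps were small. In 572 of the 960 genes lower in the mutants and 534 of the 834 higher, the gap was at most 0.1. It exceeded 0.5 in 44 genes, 32 lower and 12 higher, and exceeded 1 in Krt36, Nr4a3, Csrnp1, Ang4 and Reg4. The median gap was 0.08 for genes lower and 0.07 for genes higher, and the median log2 differences were -0.30 and 0.30. At the line of no gap, Il17ra was just inside, with 5.5453 FPKM in the lower wild-type library and 5.5450 in the highest mutant. Cyc1 was just inside as well (407.19 against 407.15 FPKM), and Clint1 (99.036 against 99.055) and Zmym2 (12.808 against 12.812) were just outside. On the higher side Zfp212 and Srp54c were just inside. Tmed3 was just outside, as was Rpl26, a ribosomal protein gene listed at 0 in both wild-type and 3 mutant libraries, where 0 may be a failed estimate.

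The share of genes apart differed by expression level in opposite ways for the directions. Genes lower in the mutants made up 4.69% of those at a mean of 1 to 5 FPKM, 8.16% at 5 to 25, 11.02% at 25 to 100 and 12.7% at 100 or more. Genes higher in the mutants made up 8.74%, 8.10%, 5.16% and 3.56% of the same classes. The part that depth plays in these shares was not tested.

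**Figure D1:**
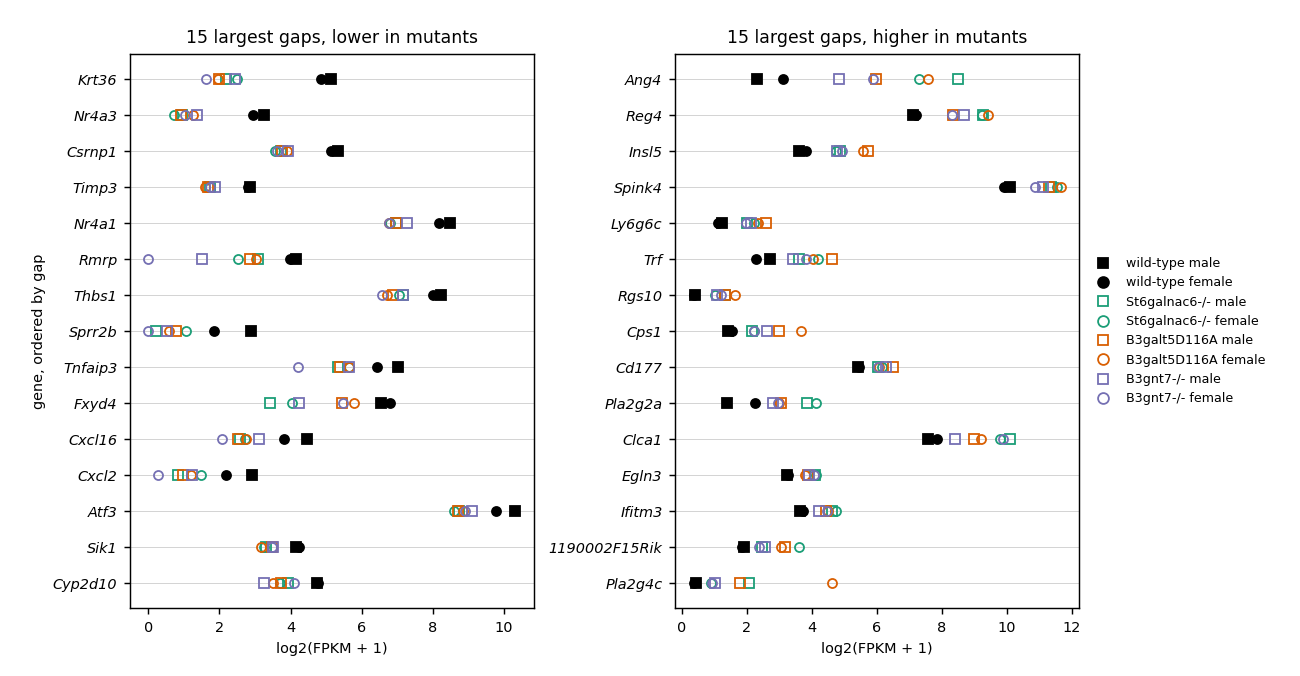
Level in log2(FPKM + 1) on the x axis in each of the 8 libraries (filled black, wild-type; open, mutants; squares, male; circles, female) for the 15 genes per direction with the largest gap, ordered by gap. The filled points lie to the right of all 6 open points in the left panel and to the left of them in the right panel, as the choice of the genes requires. The widest gap is 2.36 for Krt36.

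Limma tested the mean of the 3 mutant genotypes against wild-type, with sex in the fit and p-values adjusted by Benjamini-Hochberg over the 11537 genes. It called 21 genes (0.182%), 16 lower (0.139%) and 5 higher (0.0433%) in the mutants, and 1305 had an unadjusted p under 0.05. Genes apart numbered 20 of the 21, which rests on the same values and is no separate evidence. The calls depended on both wild-type libraries. Without the wild-type male library 5 genes were called, of which 1, Klk1b22, was among the 21, and without the wild-type female 2 were called, neither among the 21. Without the St6galnac6-/- male or female library 4 and 9 genes were called, and without the B3galt5D116A male 12. Without the B3gnt7-/- male or female library 80 and 62 were called, and the 20 calls named below held in both cases. A genotype left with 1 library is fitted exactly, so leaving out a library takes the spread within its genotype out of the test. Calls gained or kept that way are therefore no sign of a firmer difference. With no batch or date in the labels, a batch that separates the wild-type libraries from the others and the mutations cannot be told apart. In a fit with the 6 mutant libraries as 1 group and sex, which counts differences between mutants as spread, 9 of the 20 calls were lost: Ang4, Fosb, Fxyd4, Insl5, Klk1b22, Pla2g2a, Psca, Tnni1 and Ttr.

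**Figure D2:**
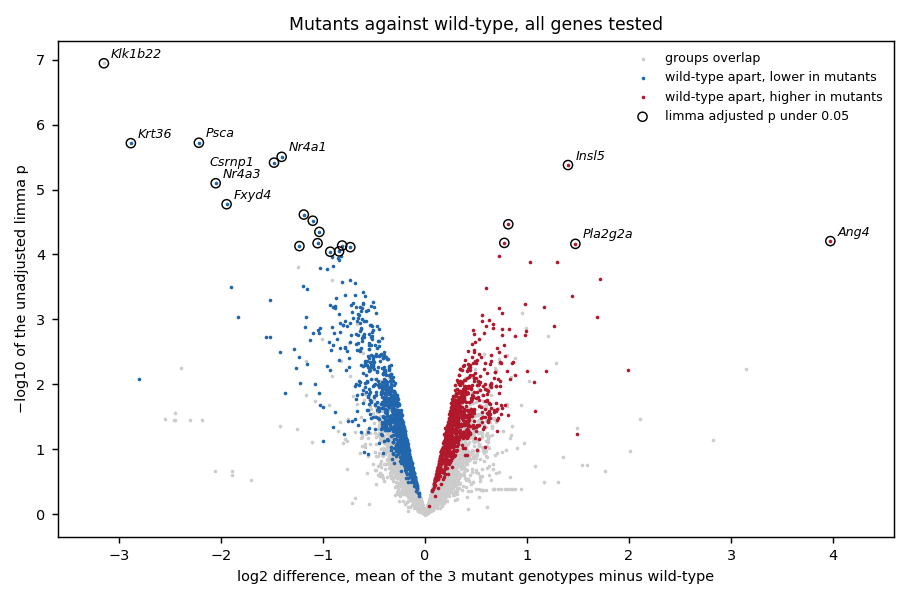
Log2 difference (mean of the 3 mutant genotypes minus wild-type, x axis) against −log10 of the unadjusted limma p (y axis) for the 11537 genes tested; blue and red points are genes apart, grey points overlap between groups, and black circles mark the 21 calls. Of the circled genes 16 lie left of 0 and 5 right, with Klk1b22 the only circle on a grey point.

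Of the lists, immediate early genes had the highest share of members apart with all 8 libraries. Of 30 tested, 21 lay lower in all 6 mutant libraries and 0 higher, against 8.32% and 7.23% of all genes tested. Limma called 6 lower, namely Nr4a3, Csrnp1, Nr4a1, Atf3, Fosb and Sik1, against a background of 0.139%. The median log2 difference of the list was -0.55, where that of all genes tested was -0.01. Set against the same 2 wild-type libraries, which the 3 values share, the list's median was -0.57 in St6galnac6-/-, -0.56 in B3galt5D116A and -0.53 in B3gnt7-/-. Without the B3gnt7-/- female library 23 of the 30 lay lower in all 5 remaining mutant libraries and 2 higher, and 6 were called.

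Nr4a3 and Nr4a1 encode orphan nuclear receptors. Nr4a3 (mm10 chromosome 4 from 48045153 to 48086447) had 8.51 and 6.66 FPKM in the wild-type male and female libraries. Its lowest, median and highest mutant values, given in that order here and for the genes that follow, were 0.651, 0.990 and 1.58 FPKM. Every mutant library was below both wild-type libraries, and the mutant mean was 14.3% of the wild-type mean. It fell by 2.05 on the log2 scale (SE 0.18, limma adjusted p = 0.0132). Nr4a1 (chromosome 15 from 101254269 to 101274795) had 355 and 288 FPKM in wild-type against 108, 117 and 152 FPKM in the mutants. The groups did not overlap, the log2 difference was -1.41 (SE 0.11, limma adjusted p = 0.00807), and the gap of 0.92 was wider than the log2 range within wild-type (0.30) or the mutants (0.49). Nr4a2, another receptor of the family, named after its values were seen, was apart but not called (log2 difference -0.47, adjusted p = 0.350).

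Csrnp1 encodes a nuclear protein of the cysteine-serine-rich family (chromosome 9 from 119971163 to 119984658). Its wild-type values of 39.1 and 34.1 FPKM stood against 10.9, 12.3 and 14.3 FPKM in the mutants. The 6 mutant libraries lay close together (mean 12.5 ± 1.41 FPKM, SD, n = 6), and the log2 difference was -1.48 (SE 0.11, limma adjusted p = 0.00807). Sik1, a salt-inducible kinase, had 16.9 and 17.9 FPKM in wild-type against 7.996, 9.45 and 10.4 FPKM in the mutants. It fell by 0.84 (SE 0.11, adjusted p = 0.0499), which is at the edge of the threshold.

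Atf3 and Fosb encode basic leucine zipper factors, which bind DNA in pairs. Atf3 (chromosome 1 from 191170296 to 191218039) had 1278 and 869 FPKM in wild-type against 382, 441 and 545 FPKM in the mutants, a fall of 1.23 on the log2 scale with a limma adjusted p of 0.0470. Fosb (chromosome 7 from 19302696 to 19310051) had 401 and 352 FPKM in wild-type against 148, 173 and 246 FPKM in the mutants, a log2 difference of -1.05 (limma adjusted p = 0.0470). Neither overlapped between the groups. Within the mutants, Fosb was highest in the 2 B3gnt7-/- libraries, at 201 and 246 FPKM. Other members of the list, named after their values were seen, had smaller differences. Junb was apart (log2 difference -0.70, adjusted p = 0.120), as were Fos (-0.41) and Egr1 (-0.31), whereas Jun (-0.25) overlapped. At the other end of the list Myc, also named after its values were seen, overlapped at 19.0 and 23.5 FPKM in wild-type and 21.9 to 36.2 FPKM in the mutants.

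The promoters of these 5 called transcription regulators are shown because the genes were low together in every mutant library. Each is the 250 bases before a transcription start, 5′ to 3′ on the gene's strand, from RefSeq on GRCm38.p6. The windows are chr15:101266596-101266845 (+) for Nr4a1, chr4:48045055-48045304 (+) for Nr4a3, chr9:119984743-119984992 (-) for Csrnp1, chr1:191183334-191183583 (-) for Atf3 and chr7:19310046-19310295 (-) for Fosb. Capitals mark TGACG or its reverse complement CGTCA, the core of the cAMP response element, whichever strand it is on.
Nr4a1: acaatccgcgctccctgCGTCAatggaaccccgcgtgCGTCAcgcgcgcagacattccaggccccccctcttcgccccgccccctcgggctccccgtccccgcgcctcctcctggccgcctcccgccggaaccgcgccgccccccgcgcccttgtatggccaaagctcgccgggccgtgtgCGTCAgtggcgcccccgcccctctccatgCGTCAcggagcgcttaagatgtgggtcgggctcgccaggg
Nr4a3: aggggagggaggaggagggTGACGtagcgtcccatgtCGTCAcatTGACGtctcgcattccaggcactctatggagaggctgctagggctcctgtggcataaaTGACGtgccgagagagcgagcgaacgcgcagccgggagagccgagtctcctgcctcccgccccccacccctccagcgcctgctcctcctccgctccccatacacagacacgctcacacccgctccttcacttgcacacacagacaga
Csrnp1: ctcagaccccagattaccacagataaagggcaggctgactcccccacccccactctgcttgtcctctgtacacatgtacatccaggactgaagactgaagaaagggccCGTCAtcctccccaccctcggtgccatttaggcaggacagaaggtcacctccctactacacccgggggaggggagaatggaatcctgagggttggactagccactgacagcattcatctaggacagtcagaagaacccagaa
Atf3: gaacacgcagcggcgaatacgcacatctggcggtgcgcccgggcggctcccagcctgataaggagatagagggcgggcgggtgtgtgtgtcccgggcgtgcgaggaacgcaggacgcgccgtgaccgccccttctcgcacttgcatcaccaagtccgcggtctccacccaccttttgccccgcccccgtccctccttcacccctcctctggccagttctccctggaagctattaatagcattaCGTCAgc
Fosb: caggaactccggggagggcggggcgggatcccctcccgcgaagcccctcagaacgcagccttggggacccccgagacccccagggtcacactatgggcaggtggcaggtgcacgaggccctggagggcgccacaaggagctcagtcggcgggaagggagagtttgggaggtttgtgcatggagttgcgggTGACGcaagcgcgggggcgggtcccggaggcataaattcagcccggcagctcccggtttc
Nr4a1 and Nr4a3 each held 4 such motifs, and Csrnp1 (in the first of its 4 windows), Atf3 and Fosb each held 1. None of the 5 windows held the full palindrome TGACGTCA or the AP-1 motif TGANTCA. Of 23 tested immediate early genes with a RefSeq window, 13 (56.5%) held the 5-letter motif in their first window, as did 12 of the 16 that were lower and apart (75.0%). The share was 28.1% for 8810 tested genes with a window and 17.8% over all 32851 windows. The sets were not matched for base composition, and the differences between their shares were not tested. A match is a description of letters and not of binding.

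Heat shock genes, which encode chaperones for misfolded proteins, depended on the B3gnt7-/- female library. With all 8 libraries, 0 of 17 were apart and 0 were called, though all 17 log2 differences were above 0, with a median of 0.30. The medians were 0.47 in St6galnac6-/-, 0.63 in B3galt5D116A and near 0 in B3gnt7-/-. In the B3gnt7-/- female all 17 were below both wild-type libraries. Without the B3gnt7-/- female library, 16 of the 17 lay higher in all 5 other mutant libraries, and the median was 0.56. Limma then called 4 (Hspa1a, Hspb1, Hspd1 and Hsph1), where 13% of all genes lay higher and 0.209% were called higher. These list counts were added after the data were seen, and the library left out lay below wild-type in all 17. What is found without it is therefore a description and no separate evidence. The FPKM of Hspb1 was 8.54 and 16.1 for the wild-type male and female, 49.2 for both St6galnac6-/- libraries, 44.9 and 43.0 for B3galt5D116A, and 57.3 and 3.002 for the B3gnt7-/- male and female. Only the last lay below wild-type. Its log2 difference was 1.35 (adjusted p = 0.563) with all libraries and 2.04 (adjusted p = 0.0144) without that library. Hspa1a, the inducible Hsp70, was at 153 and 237 FPKM in wild-type, 358 to 468 FPKM in 5 mutant libraries and 77.9 FPKM in the B3gnt7-/- female. Its log2 difference of 0.73 became 1.19 without that library. Without the wild-type male it was -0.01, the difference within females alone, whose mutant mean holds the B3gnt7-/- female. The St6galnac6-/- and B3galt5D116A females had 466 and 358 FPKM, against 237 FPKM in the wild-type female.

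**Figure D3:**
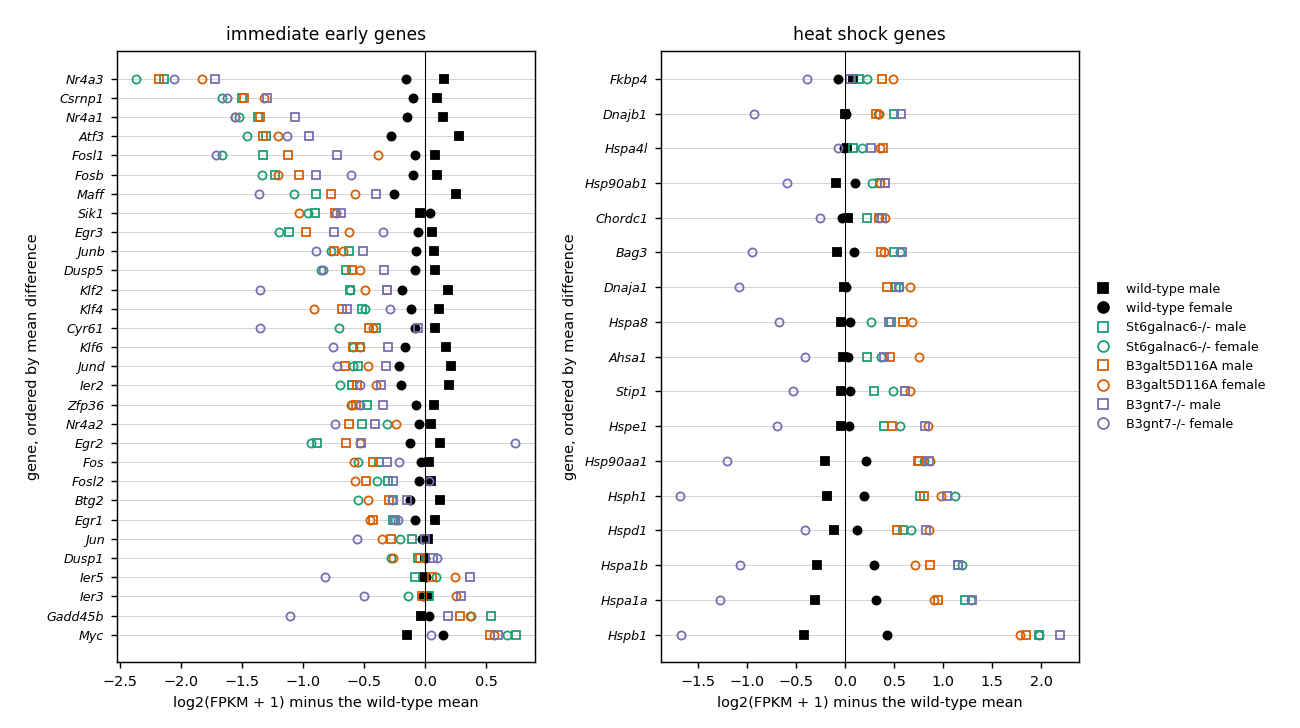
Distance in log2(FPKM + 1) of each library from the wild-type mean (x axis) for the 30 immediate early genes and 17 heat shock genes tested (symbols: filled black, wild-type; open, mutants; squares, male; circles, female). In the left panel 21 genes have every open symbol to the left of both black ones; in the right panel the B3gnt7-/- female circle lies to the left for every gene while other mutants lie mostly to the right.

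Tnfaip3, Cxcl16 and Cxcl2 were among the 15 widest gaps on the lower side and belong to no list. Tnfaip3, which encodes the ubiquitin-editing inhibitor A20, had 130 and 85.3 FPKM in wild-type against 17.3, 44.6 and 49.3 FPKM in the mutants (log2 difference -1.43, SE 0.33, limma adjusted p = 0.203). The chemokine gene Cxcl16 had 21.2 and 13.0 FPKM in wild-type against 3.20, 5.25 and 7.63 FPKM in the mutants (-1.52, adjusted p = 0.120). The chemokine gene Cxcl2 had 6.56 and 3.56 FPKM in wild-type against 0.199, 1.14 and 1.81 FPKM in the mutants (-1.56, adjusted p = 0.156). In all 3 the B3gnt7-/- female library was the lowest and the wild-type male the highest. The differences of Tnfaip3 and Cxcl16 depended in size on the B3gnt7-/- libraries. Without the male library the log2 difference was -1.67 for both Tnfaip3 and Cxcl16. Without the female library it was -1.19 for Tnfaip3, -1.36 for Cxcl16 and -1.39 for Cxcl2. Cxcl16 passed with the mutants as 1 group (limma adjusted p = 0.0464).

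Another 3 genes are given singly, chosen after their values were seen, and stand for no group. The cytokine gene Tnf had 18.4 and 13.3 FPKM in wild-type against 2.12, 7.05 and 8.52 FPKM in the mutants. Nfkbia, the inhibitor IκBα, had 255 and 210 FPKM in wild-type against 49.5, 121 and 142 FPKM in the mutants. Rel, a transcription factor subunit, had 6.85 and 5.23 FPKM in wild-type against 2.21, 2.75 and 3.24 FPKM in the mutants. They did not overlap between groups, with log2 differences of -1.23, -1.08 and -0.88 and limma adjusted p of 0.291, 0.297 and 0.120. Without the B3gnt7-/- male library the log2 differences of Tnf and Nfkbia were -1.50 and -1.32, and without the female library -0.95 and -0.83. Rel passed with the mutants as 1 group (0.04997).

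Krt36, a hair-type keratin, had the widest gap of all genes. It lies on chromosome 11 from 100102007 to 100105626 and was at 34.4 and 27.9 FPKM in wild-type. The mutant values were 3.54 and 4.62 for St6galnac6-/-, 2.96 and 2.91 for B3galt5D116A, and 4.42 and 2.098 for B3gnt7-/-. All 6 mutant libraries were far below both wild-type libraries, and the mutant mean was 10.997% of the wild-type mean. It fell by 2.88 (SE 0.20, limma adjusted p = 0.00743), with -2.66, -3.02 and -2.96 in the 3 mutants in that order against the shared wild-type libraries. Krt23, another keratin, was apart at 12.0 and 12.7 FPKM against 5.21, 7.004 and 8.20 FPKM, but its log2 difference of -0.81 was not called (adjusted p = 0.145). Of 8 keratins tested 3 (37.5%, against 8.32% of all genes) lay lower in all mutant libraries. The 1 (12.5%, against 7.23%) that lay higher was Krt7 (108 and 98.5 FPKM in wild-type, 110 to 144 FPKM in the mutants). These counts were the same without the B3gnt7-/- female library, where the shares of all genes were 12.4% and 13%.

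Fxyd4, a regulator of the sodium pump, was the 1 gene of sodium and potassium transport called with all libraries. Its wild-type libraries had 92.8 and 109.9 FPKM, those of St6galnac6-/- 9.67 and 15.4, those of B3galt5D116A 42.2 and 53.9, and those of B3gnt7-/- 17.8 and 43.4. All 6 mutant values were below wild-type, and they ranged more widely among themselves than those of Krt36. The log2 difference was -1.94 (SE 0.19, limma adjusted p = 0.0243), and the F test of a difference among the 3 mutants gave an adjusted p of 0.289. The call was lost without the St6galnac6-/- male (adjusted p = 0.0744) or female (0.0841) and with no sex term (0.0576). Of 17 genes of sodium and potassium transport, 2 (11.8%, against 8.32% of all genes) lay lower, Fxyd4 and the sodium-proton exchanger Slc9a2. The chloride cotransporter gene Slc12a2 was the 1 (5.88%, against 7.23%) that lay higher, and 14 overlapped. Leaving out the B3gnt7-/- female library, 7 (41.2%, against 12.4% of all genes) lay lower and 1 (5.88%, against 13%) higher. Limma then called Fxyd4 and Atp12a, a proton-potassium pump (log2 difference -1.15, adjusted p = 0.0383). With all libraries Atp12a had 35.9 and 60.8 FPKM in wild-type and 13.1 to 42.1 FPKM in the mutants, and overlapped (-1.01, adjusted p = 0.162).

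Of 29 absorptive colonocyte genes tested, 8 (27.6%, against 8.32% of all genes) lay lower in all mutant libraries and 0 higher, with 0 called and a median log2 difference of -0.24. When the B3gnt7-/- female library was left out, 13 (44.8%, against 12.4%) lay lower, and 1 was called, Atp12a, which is on this list too. Saa1, the acute phase protein serum amyloid A, had 851 and 999 FPKM in wild-type against 417, 454 and 600 FPKM in the mutants. Prdx6, a peroxiredoxin, had 1452 and 1130 FPKM in wild-type against 545, 791 and 972 FPKM in the mutants. The phosphate transporter Slc20a1 had 345 and 332 FPKM against 189, 199 and 279 FPKM. These 3 did not overlap between groups, and their limma adjusted p were 0.120, 0.202 and 0.195. Without the B3gnt7-/- male library Saa1 passed (0.0382). A bulk library cannot tell fewer cells of a type from less RNA per cell.

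Tight junction genes, whose proteins seal the space between epithelial cells, were the list with the next highest share of genes apart and lower. Of 19 tested, 11 (57.9%, against 8.32% of all genes) lay lower and 0 higher, with 0 called and a median log2 difference of -0.21. The count was 13 lower (68.4%, against 12.4% of all genes), with 0 called, without the B3gnt7-/- female library. Cldn4, a claudin, had 180 and 129 FPKM in wild-type against 46.9, 68.0 and 90.3 FPKM in the mutants (log2 difference -1.18, SE 0.23, limma adjusted p = 0.145). Ocln, occludin, had 66.0 and 55.5 FPKM in wild-type and lay within 36.5 to 41.1 FPKM in all 6 mutants (-0.61, SE 0.10, adjusted p = 0.104). Cldn23 and Cldn3 were apart with smaller gaps, 0.07 and 0.16. Cldn2, which forms a pore for cations and is named after its values were seen, was of opposite sign, at 50.2 and 78.03 FPKM in wild-type and 72.4 to 103 FPKM in the mutants, and overlapped.

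Other genes that fell belong to no list. Thbs1, the matrix protein thrombospondin, had 298 and 254 FPKM in wild-type against 94.0, 125 and 142 FPKM in the mutants (log2 difference -1.19, limma adjusted p = 0.0312). Timp3, an inhibitor of metalloproteinases, had 6.27 and 5.91 FPKM against 2.03, 2.33 and 2.66 FPKM (-1.10, adjusted p = 0.0349). Sox21, a transcription factor gene, had 13.7 and 9.88 FPKM against 4.56, 5.12 and 6.10 FPKM (-1.04, adjusted p = 0.0433). In each of the 3 every mutant library was below both wild-type libraries.

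Mafk, a small Maf factor, had 107 and 79.4 FPKM in wild-type against 42.2, 48.1 and 56.3 FPKM in the mutants (-0.93, limma adjusted p = 0.0499). Tnni1, a slow-muscle troponin, had 78.2 and 80.5 FPKM against 28.9, 49.6 and 57.6 FPKM (-0.81, adjusted p = 0.0470), with both lowest values in St6galnac6-/-. Sprr2b, a cornified envelope protein, had low values, at 6.44 and 2.57 FPKM in wild-type and 0 to 1.07 FPKM in the mutants, and was not called (adjusted p = 0.135). The cytochrome P450 gene Cyp2d10 had 25.5 and 26.3 FPKM in wild-type against 8.50, 12.0 and 16.0 FPKM in the mutants (-1.05, adjusted p = 0.148). Neither overlapped between the groups.

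Goblet cell secretory genes had the highest share of members apart and higher of all lists, with all 8 libraries. Of 21 tested, 11 lay higher in all 6 mutant libraries and 2 lower (Klk1 and, named after its values were seen, Guca2a), with a median log2 difference of 0.33 and 1 call, Ang4. The shares, 52.4% and 9.52%, stand beside 7.23% and 8.32% of all genes, and the call beside 0.0433% of all genes called higher. Medians against the shared wild-type libraries were 0.36 in St6galnac6-/-, 0.34 in B3galt5D116A and 0.36 in B3gnt7-/-. Ang4, an antimicrobial ribonuclease (chromosome 14 from 51763878 to 51773590), had 3.98 and 7.56 FPKM in wild-type. The male and female of St6galnac6-/- reached 361 and 158 FPKM, those of B3galt5D116A 61.5 and 191, and those of B3gnt7-/- 27.3 and 58.2. Even the lowest mutant library exceeded the higher wild-type library, and the mutant values spanned a wide range (mean 143 ± 124 FPKM, SD, n = 6). The log2 difference of 3.97 (SE 0.47) was the largest of the 5 higher calls, at a limma adjusted p of 0.0470. The call was lost with a pseudocount of 5 (adjusted p = 0.0636), with the mutants as 1 group (0.107) and without the B3galt5D116A female library (0.0532).

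Reg4, a secreted lectin-like protein, had 138 and 146 FPKM in wild-type against 318, 503 and 681 FPKM in the mutants, and its gap of 1.11 ranked next after that of Ang4. Spink4, a protease inhibitor of goblet cells, had 1099 and 968 FPKM against 1869, 2573 and 3225 FPKM. Clca1, a mucus-processing metalloprotease, had 189 and 228 FPKM against 335, 732 and 1091 FPKM. None of the 3 overlapped, and with all libraries each missed the limma threshold (adjusted p = 0.0815, 0.0541 and 0.135). Without the B3gnt7-/- male the log2 differences of Reg4, Spink4 and Clca1 were 1.59, 1.23 and 1.92. Without the B3gnt7-/- female they were 1.83, 1.35 and 1.44. Leaving out either library also takes the spread of that pair, 335 and 946 FPKM for Clca1, out of the test. Without the female 12 of the 21 goblet genes (57.1%, against 13% of all genes) lay higher and 2 (9.52%, against 12.4%) lower, and 4 were called. The share of 57.1% was then below those of heat shock (94.1%) and proliferation (71.4%) genes. Retnlb, resistin-like molecule beta, had 16.7 and 21.0 FPKM in wild-type against 23.3 to 265 FPKM in the mutants. Its log2 difference was 1.99 with an SE of 0.51, and both B3gnt7-/- libraries were the lowest mutants. The main mucin gene Muc2, chosen after its values were seen, overlapped at 1399 and 1250 FPKM in wild-type and 1045 to 1786 FPKM in the mutants (log2 difference 0.09, adjusted p = 0.870).

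Among antimicrobial and acute phase genes, 4 of 15 (26.7%, against 7.23% of all genes) lay higher and 2 (13.3%, against 8.32%) lower. Ang4 and Pla2g2a were called, where limma called 0.0433% of all genes higher. Of the 4, Ang4, Retnlb and Zg16 are also on the goblet list. The 2 lower genes, Saa1 and Lypd8, are also on the absorptive colonocyte list. The summed FPKM of the list was 13519 and 13466 in wild-type and 11597 to 13750 in the mutants. The counts were 6 higher (40%, against 13% of all genes), 2 lower (13.3%, against 12.4%) and 2 called without the B3gnt7-/- female library. Pla2g2a encodes a secreted phospholipase that acts on bacteria. It had 1.62 and 3.77 FPKM in wild-type against 6.03, 7.03 and 16.6 FPKM in the mutants (1.47, SE 0.18, limma adjusted p = 0.0470). The St6galnac6-/- libraries were highest, at 13.5 and 16.6 FPKM. Pla2g4c, a cytosolic phospholipase, had a gap of 0.46 but rested in size on the B3galt5D116A female, at 23.5 FPKM against 0.862 to 3.17 FPKM in the other mutants and 0.356 and 0.278 FPKM in wild-type (adjusted p = 0.456).

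Enteroendocrine genes were all on the higher side. Of 10 tested, 4 (40%, against 7.23% of all genes) lay higher in all mutant libraries and 0 lower. Without the B3gnt7-/- female library the counts were 5 (50%, against 13%) and 0. With all libraries the list's median log2 difference was 0.59, and Insl5 and Ttr were called, against 0.0433% of all genes called higher. Insl5, a hormone of colonic L cells (chromosome 4 from 103017872 to 103026842), had 11.04 and 12.996 FPKM in wild-type. The St6galnac6-/- libraries had 28.4 and 25.95 FPKM, the B3galt5D116A libraries 51.8 and 46.2, and the B3gnt7-/- libraries 26.2 and 29.2. B3galt5D116A was highest in both sexes, yet the F test among mutants gave an adjusted p of 0.456. The pooled log2 difference was 1.40 (SE 0.11, limma adjusted p = 0.00807), the smallest p among the genes that rose.

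Ttr, the carrier protein transthyretin, had 22.3 and 19.9 FPKM in wild-type against 26.3, 37.8 and 49.6 FPKM in the mutants (0.78, SE 0.09, limma adjusted p = 0.0470). Pyy, peptide YY of the same L cells, had 18.1 and 27.4 FPKM against 31.0, 58.7 and 76.6 FPKM (1.27, adjusted p = 0.145). Cpe, a prohormone-processing carboxypeptidase, had 1.58 and 2.23 FPKM against 2.49, 3.39 and 4.44 FPKM. Pyy and Cpe were apart without passing the test.

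Other genes with wide gaps on the higher side were of varied function. Trf, the iron carrier transferrin, had 5.57 and 3.87 FPKM in wild-type against 9.74, 14.3 and 23.4 FPKM in the mutants. Cps1, the first enzyme of the urea cycle, had 1.66 and 1.90 FPKM against 3.44, 4.38 and 11.7 FPKM, with both highest values in B3galt5D116A. Ly6g6c, a Ly6 family surface protein, had 1.36 and 1.16 FPKM against 2.89, 3.502 and 5.06 FPKM. None of the 3 was called, with limma adjusted p of 0.109, 0.120 and 0.0541.

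Egln3, an oxygen-sensing prolyl hydroxylase, had 8.43 and 8.64 FPKM in wild-type against 12.9, 14.8 and 16.5 FPKM in the mutants (0.72, SE 0.09, limma adjusted p = 0.0521). The neutrophil and epithelial surface gene Cd177 had 42.2 and 43.0 FPKM against 64.4, 68.0 and 89.1 FPKM (adjusted p = 0.120). Rgs10, a regulator of G-protein signalling, had 0.307 and 0.291 FPKM against 1.02, 1.39 and 2.07 FPKM (adjusted p = 0.156). At such low levels the log2(FPKM + 1) scale understates the ratio, which was 4.72 between the means.

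Interferon response genes included the call Ifitm3, where 0.0433% of all genes were called higher. Of 22 tested, 7 (31.8%, against 7.23% of all genes) lay higher in all mutant libraries and 0 lower, with a median log2 difference of 0.37. Without the B3gnt7-/- female library 8 (36.4%, against 13%) lay higher and 0 lower. Ifitm3, a membrane protein that restricts viral entry, had 11.3 and 12.3 FPKM in wild-type against 17.6, 21.3 and 25.5 FPKM in the mutants (0.82, SE 0.09, limma adjusted p = 0.0360). Ifit1, Oasl2 and Irgm1 were apart without a call, at mutant means 2.05, 1.80 and 1.44 times the wild-type mean.

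Of 6 class II antigen presentation genes tested, 1 (16.7%, against 7.23% of all genes), H2-DMb1, lay higher in all mutant libraries and 0 lower. Without the B3gnt7-/- female library the counts were 1 (16.7%, against 13%) and 0. With all libraries 0 were called either in the pooled test or in the F test among mutants. The list's median log2 difference from the shared wild-type libraries was 1.73 in St6galnac6-/-, -0.26 in B3galt5D116A and 1.08 in B3gnt7-/-. H2-Aa, the alpha chain of a class II molecule, had FPKM values of 3.69 and 2.49 for wild-type, 12.3 and 15.7 for St6galnac6-/-, 2.38 and 1.89 for B3galt5D116A, and 13.1 and 7.59 for B3gnt7-/-. The F test of a difference among the mutants gave H2-Aa an adjusted p of 0.104. H2-Ab1, H2-DMb1 and Cd74 were called higher in the pooled test without the B3gnt7-/- female library.

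Proliferation genes were higher without passing the test. Of 35 tested, 14 (40%, against 7.23% of all genes) lay higher in all 6 mutant libraries and 0 lower. The median log2 difference was 0.49, and limma called 0 (the rule calls 0.0433% of all genes higher). Nusap1, a spindle protein, had 6.75 and 7.04 FPKM in wild-type against 8.33, 13.9 and 18.2 FPKM in the mutants (0.83, adjusted p = 0.282). Ccna2, cyclin A2, had 17.5 and 19.2 FPKM against 20.2, 36.4 and 48.7 FPKM (0.81, adjusted p = 0.395). Cdk1, the mitotic kinase, had 9.17 and 9.60 FPKM against 10.3, 17.8 and 22.5 FPKM (0.75, adjusted p = 0.367). In each the B3gnt7-/- female was the lowest mutant. Without that library 25 of the 35 (71.4%, against 13% of all genes) were apart and higher, still with 0 called. Among stem cell and Wnt target genes 4 of 15 (26.7%, against 7.23% of all genes) were apart and higher, and also 4 without that library. Smoc2 had the largest difference with all libraries (0.76, adjusted p = 0.147).

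**Figure D4:**
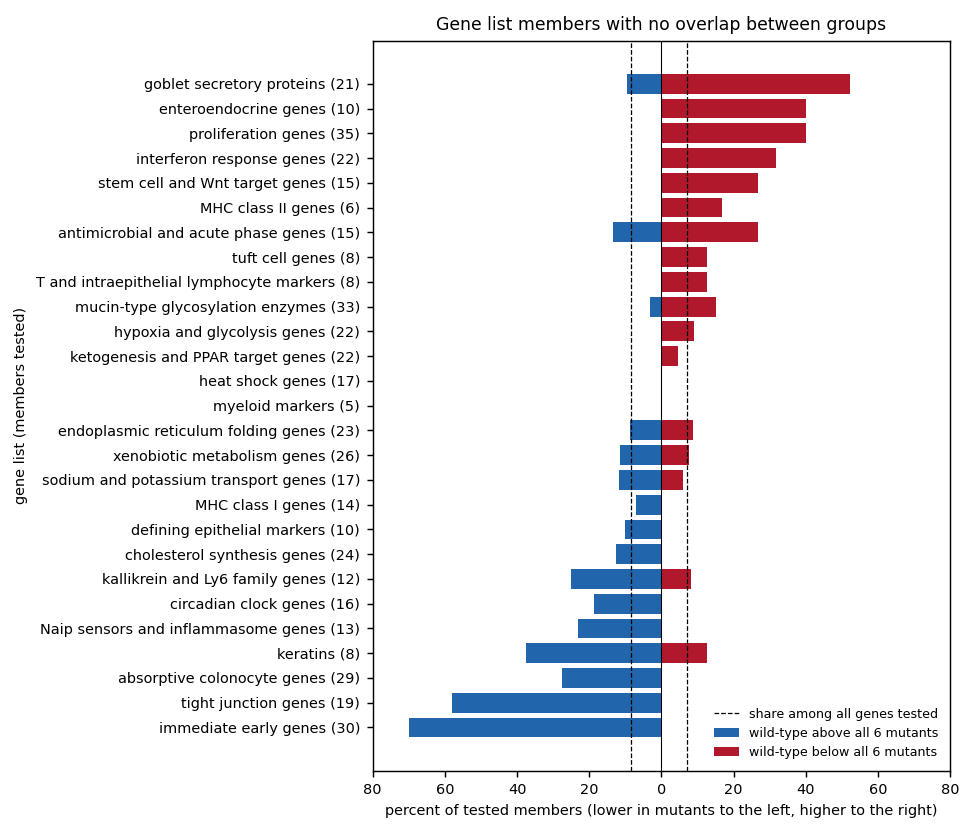
Percent of tested members of each gene list with at least 5 members tested (number in brackets) that lay lower (blue, to the left) or higher (red, to the right) in all 6 mutant libraries; dashed lines mark 8.32% and 7.23%, the shares of all genes tested. Immediate early genes reach 70.0% to the left, and goblet secretory proteins 52.4% to the right.

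Of 33 mucin-type glycosylation enzymes tested, 1 lay lower, 5 higher and 27 overlapped, and 0 were called. B4galt1, a galactosyltransferase, had 35.8 and 41.5 FPKM in wild-type against 20.6, 28.7 and 30.9 FPKM in the mutants (-0.50, SE 0.09, limma adjusted p = 0.120). St6galnac2, a sialyltransferase, had 36.9 and 41.0 FPKM against 44.9, 46.9 and 47.8 FPKM (0.26, adjusted p = 0.372). Both shares, 3.03% lower and 15.2% higher, can be read against 8.32% and 7.23% of all genes. Without the B3gnt7-/- female library 2 (6.06%, against 12.4%) lay lower and 6 (18.2%, against 13%) higher.

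In the remaining lists the shares apart are to be read against 8.32% of all genes lower and 7.23% higher, and against 12.4% and 13% without the B3gnt7-/- female library. Cholesterol synthesis genes had 23 of 24 log2 differences below 0, and 3 (12.5%) were apart and lower, 5 without that library, with 0 called. Hsd17b7 had the largest difference, -0.53 (adjusted p = 0.145). Among inflammasome genes 3 of 13 (23.1%) lay lower, 5 without that library. Of these Il18, the cytokine interleukin 18, had 188 and 198 FPKM in wild-type against 98.2, 119 and 144 FPKM (-0.67, adjusted p = 0.154). Among circadian clock genes 3 of 16 (18.8%) lay lower, 5 without that library. Nr1d1 (Rev-erb alpha) had 77.5 and 79.6 FPKM against 36.4, 49.97 and 67.3 FPKM. The time of day of collection is not given in the labels, and its part was not tested.

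With all libraries, the other lists had at most 3 members apart in a direction. Of class I antigen presentation genes 1 of 14 (7.14%) lay lower, with the same count without the B3gnt7-/- female library. Of tuft cell genes 1 of 8 (12.5%) lay higher, the cation channel gene Trpm5 (2 without that library). Of endoplasmic reticulum folding genes 2 of 23 (8.70%) lay lower and 2 higher, and without the B3gnt7-/- female library 5 lay higher. Of xenobiotic metabolism genes 3 of 26 (11.5%) lay lower and 2 (7.69%) higher, with the same counts without that library. Of hypoxia and glycolysis genes 2 of 22 (9.09%) lay higher, 3 without that library. Of ketogenesis genes 1 of 22 (4.55%) lay higher, and without that library 1 lay lower and 1 higher.

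The mutants also differed among themselves. The F test of equal mutant genotypes called 5 genes (0.0433%), with 388 at an unadjusted p under 0.05. Psca, a Ly6 family surface antigen, was called in both tests. The wild-type libraries had 10.1 and 7.20 FPKM and the St6galnac6-/- libraries 5.97 and 6.27. It was at 0.326 FPKM and listed at 0 in B3galt5D116A, and 0.112 FPKM and listed at 0 in B3gnt7-/-. Although apart, its pooled log2 difference of -2.22 (limma adjusted p = 0.00743) was made up of -0.42, -3.05 and -3.18. Klk1b22, a glandular kallikrein, had the smallest pooled p (-3.15, adjusted p = 0.00131) without being apart. The wild-type libraries had 21.3 and 25.3 FPKM, the St6galnac6-/- libraries had 22.3 and 16.8, and it was listed at 0 in the other 4 mutant libraries. Similar genes lie in its cluster, and how reads were assigned among them was not tested. In a fit of mutants and wild-type as 2 groups with sex its adjusted p was 0.419. Of 12 tested kallikrein and Ly6 family genes, 3 (25%, against 8.32% of all genes) lay lower in all mutant libraries. The number higher was 1 (8.33%, against 7.23%). Without the B3gnt7-/- female library 4 (33.3%, against 12.4%) lay lower and 1 (8.33%, against 13%) higher.

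The other 3 were Naip6, Erdr1 and BC064078, the last pair named after their values were seen. Naip6, a sensor of bacterial flagellin, had 0.0784 and 0.0818 FPKM in the St6galnac6-/- libraries, 11.96 to 20.4 in the other mutants, and 13.4 and 15.03 in wild-type. Erdr1 was lowest in B3galt5D116A, at 62.7 and 62.3 FPKM, and at 192 to 341 FPKM elsewhere. BC064078 was at 29.6 and 10.9 FPKM in B3gnt7-/- and at most 0.307 FPKM in the other libraries. None of these 3 was called in the pooled comparison of all libraries; Naip6 was called lower without the B3gnt7-/- female library.

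All 30 genes with the widest gaps had the same sign in males and females, which the choice of genes fixes. The distance between the log2 differences of the sexes had a median of 0.23, and exceeded 0.5 in 5 genes. It was smallest in genes such as Nr4a1 (-1.42 in males, -1.40 in females) and Egln3 (0.72 in both). It was largest in Sprr2b (-2.38 and -1.29), Pla2g2a (1.84 and 1.10), Cxcl2 (-1.91 and -1.20), Pla2g4c (1.18 and 1.79) and Trf (1.16 and 1.73). Krt36 (-2.94 and -2.82) and Ang4 (4.11 and 3.83) lay between. The interaction of sex and mutant called 0 of 11537 genes with limma, 203 having an unadjusted p under 0.05, and 0 also with a pseudocount of 0.1 or after quantile normalization (209 and 210 unadjusted). Without 1 mutant library it called 5 to 8. With 1 wild-type library per sex this test has little precision. In Hspb1 the differences were 2.42 in males and 0.28 in females, the latter with the B3gnt7-/- female library in the mean.

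Markers of other cells summed to far less than epithelial markers, and stromal, myeloid and erythrocyte sums were highest in the B3gnt7-/- female library. Summed FPKM of 15 stromal and muscle markers was 17.6 and 15.6 in the wild-type male and female, 12.8 to 16.8 in 5 mutant libraries and 47.5 in the B3gnt7-/- female. Erythrocyte markers summed to 50.1 and 19.7 in wild-type and to 19.0 to 113 in the mutants, the highest again in that library. Myeloid markers summed to 8.59 and 11.2 against 7.53 to 19.0, with 8 of 15 under 1 FPKM in every library and S100a8 listed at 0 in all. Markers of T and intraepithelial lymphocytes summed to 29.8 and 23.9 against 17.2 to 46.8, and Ptprc, the pan-leukocyte CD45, was at 0.714 to 2.30 FPKM over all libraries. Endothelial sums were at most 4.66 and glial and neuronal sums at most 1.93, with Emcn and Sox10 listed at 0 in all. B and plasma cell markers summed to 131 and 112 in wild-type and to 113 to 120 in the mutants, almost all of it from Sdc1 (130 and 111 FPKM in wild-type), which epithelial cells also express and which alone of that list was tested. Few members of these 7 lists of other cells were tested. They numbered 8 for T and intraepithelial lymphocytes, 5 myeloid, 4 stromal and muscle, 3 erythrocyte, 2 endothelial, 1 B and plasma cell, and 0 glial and neuronal. Xcl1, 1 of the 8 lymphocyte markers (12.5%, against 7.23% of all genes), lay higher, no other member was apart, and 0 were called. With so few tested, these counts say little. Defining epithelial markers summed to 11468 and 13036 in wild-type and to 9955 to 12279 in the mutants. The part of these markers in the differences above was not tested.

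**Figure D5:**
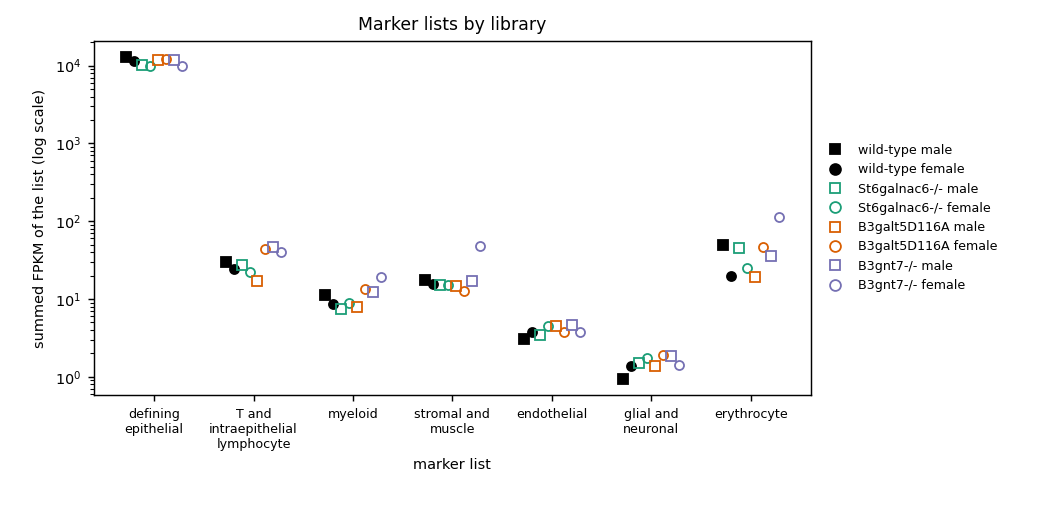
Summed FPKM (y axis, log scale) of marker lists in each library (filled black, wild-type; open, mutants; squares, male; circles, female). Epithelial sums lie between 9955 and 13036, and the B3gnt7-/- female library is highest for stromal and muscle (47.5) and erythrocyte (113) markers.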

How the data were processed

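RNA from 8 colon epithelial samples was made into stranded mRNA libraries, per the labels' protocols. Tools, per the submitters' processing notes, are Cuffdiff 2.2.1, TopHat2 2.1.1 with Bowtie2 2.2.8, and SAMtools 0.1.18, with build mm10. Their settings and the annotation are not given in the sources used here. The authors deposited FPKM values per gene for each library. No counts are given, so depth is unknown beyond the relative depth read from low values. Values were tested as log2(FPKM + 1), which understates differences of low genes, in genes averaging 1 FPKM or more. Limma 3.58.1 (R 4.3.3) fitted 4 genotypes and sex with a trended prior, 3 residual and 4.02 prior degrees of freedom. The mean of the mutants was contrasted with wild-type, two-sided, at a Benjamini-Hochberg adjusted p of 0.05. The fit was tested on simulated data. Genes named are the targeted genes, the 15 widest gaps and up to 15 largest called differences per direction, up to 4 per list, and the genes at the line of no gap. Small RNA genes and unnamed transcripts were counted but not described. Further genes are marked as chosen after their values were seen. The members and gene lists were chosen with earlier results of these data known. Alternatives were other pseudocounts, filters, scalings, fits and leaving out each library. Counts per list without the B3gnt7-/- female library were added after seeing the data.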

Additional observations from a re-analysis of the deposited data

Results flagged for a closer look

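Of 147 named genes, 16 (10.9%) had a mutant library that stood apart from the other 5 by Dixon's test (critical value 0.625 for 6 libraries); chance flags about 1 in 20. In 12 of them it was the B3gnt7-/- female. That library was low in heat shock genes, with Hspb1 at 3.002 FPKM (43.0 to 57.3 in the other mutants), Hspa1a at 77.9 FPKM (358 to 468), Hspa1b at 106 FPKM (369.5 to 515) and Hspd1, a mitochondrial chaperonin, at 164 FPKM (316 to 396). It was low in Tnf at 2.12 FPKM (6.27 to 8.52), Nfkbia at 49.5 FPKM (116.1 to 142) and Tnfaip3 at 17.3 FPKM (39.1 to 49.3). It was also low in the peptide hormone gene Adm at 11.01 FPKM (30.5 to 45.9) and in the respiratory chain gene Cyc1 at 280.0 FPKM (362 to 407). It was high in Dcn at 18.9 FPKM (2.45 to 3.03) and in the myeloid markers Lyz2 at 3.79 FPKM (0.894 to 1.60) and Tyrobp at 4.34 FPKM (1.35 to 2.15).

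The B3galt5D116A female stood apart in Pla2g4c at 23.5 FPKM (0.862 to 3.17), in the interleukin 17 receptor gene Il17ra at 3.87 FPKM (5.23 to 5.55) and in the sterol carrier gene Stard4 at 57.2 FPKM (64.7 to 68.7). The St6galnac6-/- female stood apart in the inflammasome gene Nlrc4 at 12.1 FPKM (13.8 to 14.3).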

How the results depend on the processing

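The 21 calls became 26 and 21 with pseudocounts of 0.1 and 5, 23 with a mean of at least 5 FPKM, 23 after quantile normalization, 25 after median centring, 30 with mutants as 1 group and 29 with a robust prior. They became 1 with no filter (17801 genes tested), 40 with no sex term, 11 with a constant prior and 32 with small RNA genes left out. Leaving out 1 library gave 2 to 80. Calls among the mutants became 1 with no filter and 3 with a mean of at least 5 FPKM, and 1 to 44 without 1 library. Genes apart numbered 44 with a gap above 0.5, and 1948 to 4106 without 1 library, where fewer libraries have to be apart. The sex interaction called 5 to 8 without 1 mutant library and could not be fitted without a wild-type library. Of the 20 calls named, 20 held with a pseudocount of 0.1 or median centring, 19 with no sex term, 18 with a pseudocount of 5, 17 after quantile normalization and 11 with mutants as 1 group.

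Some differences that were not called changed sign, among them Hspa1a (0.73 with all libraries), Hspa1b (0.66), Hbb-b2 (0.56), Angptl4 (0.54) and Dcn (0.42). Pecam1 turned to -0.0023 with a pseudocount of 0.1 and to -0.026 after quantile normalization, and St6galnac6 to 0.043 after quantile normalization. Leaving out 1 library gave Adm -0.064 to 0.60, Angptl4 -0.31 to 1.39, B3galt5 -0.021 to 0.28, Dcn -0.26 to 1.11, Gzma -0.37 to 0.99, Hba-a1 -0.66 to 1.29, Hbb-b1 -0.64 to 1.23, Hbb-b2 -0.29 to 1.42, Hspa1a -0.011 to 1.47, Hspa1b -0.017 to 1.35, Lyz2 -0.53 to 0.42, Muc2 -0.11 to 0.29, Pdgfrb -0.35 to 0.052, Pecam1 -0.16 to 0.17, Sdc1 -0.17 to 0.055, St6galnac6 -0.14 to 0.027 and Tagln -0.21 to 0.085. With sex in the fit, leaving out 1 wild-type library leaves the difference within the other sex alone. That sets many of these limits, among them both limits of Dcn, Gzma, Lyz2 and Muc2. What else moved the values was not tested. The labels give no replicate numbers. Sex, which pairs libraries across genotypes, is a term of the fit, and without it 40 genes were called. With 2 wild-type libraries, and no counts, differences that are small beside the spread within genotypes could go undetected.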
